A study of Homo sapiens with 3 samples.

Results

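The plasminogen activators, their receptor and an inhibitor were followed in HepG2 cells through 4 genes, PLAU, PLAT, PLAUR and SERPINE2. They were found by the gene name of the array design, which held them as 4 of 27274 genes and 5 of 34127 probes. HepG2 is an established human hepatocellular carcinoma line, and its RNA was measured on 1-color Agilent arrays (Cy3) of 60-base probes. There were 3 arrays on 1 slide, with 1 array for each condition. These were control cells with no etoposide (0 μM, named untreated in the labels and DMSO in the paper), cells given 10 μM etoposide (low dose) and cells given 100 μM etoposide (high dose), each for 30 h. Etoposide is an anticancer drug that leaves double-strand breaks in DNA by trapping a topoisomerase, and the doses were compared to separate senescent from apoptotic responses.

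Plasminogen is an inactive protease precursor that the liver secretes into blood. Urokinase (PLAU) and tissue plasminogen activator (PLAT) cleave it to plasmin, which dissolves fibrin and cuts matrix proteins, while the urokinase receptor (PLAUR) holds urokinase at the cell surface and serpins such as protease nexin 1 (SERPINE2) trap the activators. Urokinase, its receptor and several such serpins are known among the proteins that senescent cells release or expose.

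Probe and promoter sequences are shown so that the part of each transcript behind a signal, and the DNA before each start site, can be read directly. The 3 probes below read PLAUR, SERPINE2 and the second, dim probe of PLAU, and are given 5′ to 3′ in the sense of the transcript.
PLAUR, A_23_P16469: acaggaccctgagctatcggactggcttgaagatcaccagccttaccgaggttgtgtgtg
SERPINE2, A_23_P50919: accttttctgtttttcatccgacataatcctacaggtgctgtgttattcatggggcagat
PLAU, A_33_P3306146: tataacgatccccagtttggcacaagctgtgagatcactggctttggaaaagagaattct
The PLAUR probe lies at chr19:48861338-48861397 on the minus strand of hg18 and matches NM_001005377 from base 450. The SERPINE2 probe matches NM_006216 from base 1367, and its ends lie 1699 bases apart in the genome, at chr2:224548841-224550539 on the minus strand, so it crosses a splice junction. The dim PLAU probe lies at chr10:75344620-75344679 on the plus strand and matches NM_001145031 from base 1340. The brighter PLAU probe, A_23_P24104, lies farther along the gene at chr10:75347056-75347115 and was designed on NM_002658.

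The 250 bases before annotated start sites came from RefSeq on GRCh38.p14, where PLAU and SERPINE2 have more than 1 start and PLAT has no entry. Capitals mark matches to the motifs searched on both strands. These were the AP-1 site (TGAGTCA or TGACTCA), the CRE (TGACGTCA), the E-box (CACGTG), the CCAAT box (CCAAT or ATTGG), the GC box (GGGCGG or CCGCCC), the TATA box (TATAAA or TTTATA) and the p53 half-site.
PLAUR, chr19:43670170-43670419, minus strand: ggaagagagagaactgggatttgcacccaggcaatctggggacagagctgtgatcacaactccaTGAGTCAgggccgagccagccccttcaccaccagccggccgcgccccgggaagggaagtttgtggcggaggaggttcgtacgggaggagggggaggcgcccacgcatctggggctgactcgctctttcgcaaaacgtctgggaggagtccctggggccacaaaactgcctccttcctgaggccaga
SERPINE2, chr2:224031479-224031728, minus strand: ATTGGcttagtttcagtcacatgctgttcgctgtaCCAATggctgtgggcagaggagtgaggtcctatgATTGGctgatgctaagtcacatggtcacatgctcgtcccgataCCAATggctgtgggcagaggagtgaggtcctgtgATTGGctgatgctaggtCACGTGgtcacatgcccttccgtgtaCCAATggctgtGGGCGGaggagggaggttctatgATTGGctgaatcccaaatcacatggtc
PLAU, chr10:73910882-73911131, plus strand: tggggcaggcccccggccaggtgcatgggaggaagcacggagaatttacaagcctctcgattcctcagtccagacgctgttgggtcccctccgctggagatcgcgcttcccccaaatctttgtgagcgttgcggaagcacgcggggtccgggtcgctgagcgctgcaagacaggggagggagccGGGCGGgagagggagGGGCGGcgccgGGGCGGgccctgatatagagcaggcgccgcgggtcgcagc
The PLAUR window held an AP-1 site 186 bases before the start, a motif found in 4.2% of 35116 windows of this length. The SERPINE2 window held 7 CCAAT boxes on alternating strands, an E-box 87 bases and a GC box 50 bases before the start. CCAAT boxes were in 32.0%, E-boxes in 6.34% and GC boxes in 42.6% of all windows. The PLAU window held 3 GC boxes, at 66, 51 and 40 bases. A second PLAU window held 1 CCAAT box and a second SERPINE2 window held 2 GC boxes. The p53 half-site, which 5.57% of windows held, the CRE (1.65%) and the TATA box (3763 windows) had no match in these 5 windows. A match describes the letters and is no evidence that a factor binds.

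Of 44495 spots per array, 43118 carried no control sequence, and 19836 to 20150 probes were well above background by the call of the scanner software. Levels are the background-subtracted signal of a spot, and fold changes are differences of log2 signal after each array was set relative to its 75th percentile, which was 514 in control cells, 536 with 10 μM and 432 with 100 μM. Hepatocyte markers were well above background for 6 of 6 genes on every array. Fibroblast markers were above it for 1, 1 and 0 of 6 genes, endothelial markers for 2, 2 and 3 of 4, and leukocyte markers for 3 of 4 on each array. The collagen genes COL1A1, COL1A2 and COL3A1 and the macrophage receptor CD163 were well above background on no array. The other leukocyte markers were well above it on every array. In control, low dose and high dose cells CD14 had signals of 521, 1184 and 1847 and CD68 of 173, 239 and 409. PTPRC had 257, 131 and 288 by its brightest probe, and its other probes were above background on no array. The summed scaled signal of the leukocyte list was 955 in control cells, 1494 with 10 μM and 3031 with 100 μM, that of the fibroblast list 124, 108 and 67.2 and that of the endothelial list 535, 354 and 428. HepG2 is a cultured line, and these sums describe RNA of marker genes and do not count cells of a type. Why they differed between arrays was not tested. In bulk RNA, fewer cells expressing a gene and less RNA per cell cannot be told apart. With 1 array per condition no difference could be checked against replicates, and no p-values are given. The SD printed with a log2 fold change is the spread between repeated spots, which covers the arrays and not cultures.

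PLAU, the urokinase gene, was higher than control with 10 μM and lower than control with 100 μM. The signal of its bright probe was 292 in control cells, 382 with 10 μM and 194 with 100 μM. The probe was printed 10 times on each array, and its spots ranged from 272 to 324 in control cells, from 373 to 402 with 10 μM and from 183 to 212 with 100 μM. Scaled to the control array, the low dose spots lay between 357 and 385 and the high dose spots between 218 and 252, so the spots of the 3 arrays did not overlap before or after scaling. On the log2 scale, the low dose exceeded control by 0.32 (1.25-fold, spot SD 0.07) and the high dose differed from control by -0.34 (0.789-fold, spot SD 0.09). The low dose exceeded the high dose by 0.67 (1.59-fold, spot SD 0.07). These 3 directions held under each of the 10 alternative settings run, with ranges of 0.28 to 0.39, -0.63 to -0.24 and 0.52 to 0.98. The second PLAU probe had signals of 15.7, 11.1 and 10.2 and was not well above background on any array, so no fold change is given for it.

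PLAT, the tissue plasminogen activator gene, was read by A_23_P82868, designed on NM_000930, at chr8:42151969-42152028 on the minus strand of hg18. It had a signal of 76.7 in control cells, 98.3 with 10 μM and 70.1 with 100 μM. Its 10 spots ranged from 66.3 to 86.7 in control cells, from 87.8 to 106 with 10 μM and from 62.8 to 79.5 with 100 μM. Before scaling the low dose spots lay above those of both other arrays, whereas after scaling they ranged from 84.1 to 102 and overlapped the control spots and the high dose spots, which then ranged from 74.7 to 94.5. The log2 difference from control was 0.30 with 10 μM (1.23-fold, spot SD 0.12) and 0.12 with 100 μM (1.09-fold, spot SD 0.15). The first was above 0 under every alternative run (0.17 to 0.36), but the second ran from -0.17 to 0.20 and was below 0 with no scaling and with median, quantile or spike-in scaling, so no direction is given for PLAT at the high dose. The low dose differed from the high dose by 0.18 (spot SD 0.14), and this too changed sign, to -0.03, under normexp background correction.

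PLAUR, the receptor that anchors urokinase to the membrane, was read by 1 spot per array. Its signal was 74.1 in control cells, 110.5 with 10 μM and 81.2 with 100 μM. The log2 difference from control was 0.51 with 10 μM (1.43-fold, spot SD 0.13) and 0.38 with 100 μM (1.30-fold, spot SD 0.15), with ranges over the alternatives of 0.27 to 0.58 and 0.09 to 0.44. Both doses therefore lay above control under all settings run. At the high dose, however, the values with no scaling (0.13) and with median scaling (0.09) were within the spot SD. The difference between doses, 0.13 (spot SD 0.13), was about the size of the spread between spots and ran from -0.08 to 0.44.

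SERPINE2, which encodes the thrombin and urokinase inhibitor protease nexin 1, lay higher above control than the other 3 genes at each dose. Its signal was 50.4 in control cells, 97.9 with 10 μM and 72.8 with 100 μM, from 1 spot per array. The log2 difference from control was 0.90 with 10 μM (1.86-fold, spot SD 0.17) and 0.78 with 100 μM (1.72-fold, spot SD 0.18). These ran from 0.47 to 0.96 and from 0.49 to 0.84 over the alternatives, so both doses stayed above control. The doses differed by 0.12 (spot SD 0.13), a value within the spread between spots that ran from -0.06 to 0.43.

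**Figure D1:**
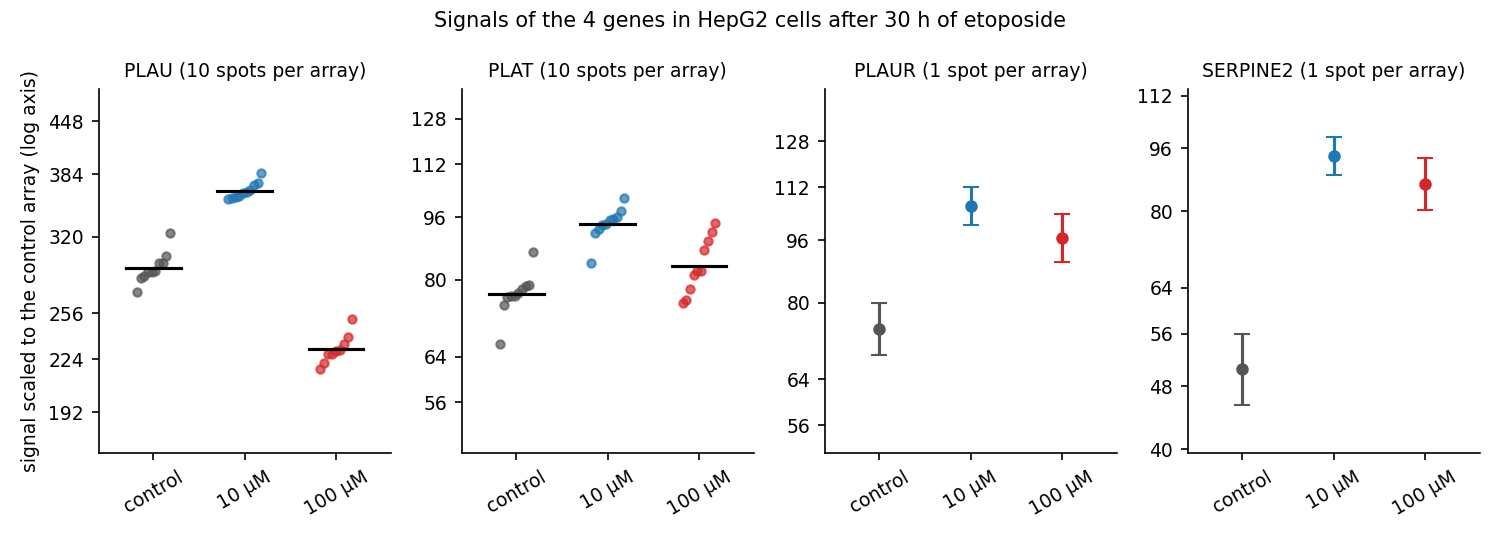
Signals of PLAU, PLAT, PLAUR and SERPINE2 on the control, 10 μM and 100 μM arrays, scaled to the control array by the 75th percentile and drawn on log axes that differ between panels. Points for PLAU and PLAT are the repeated spots of 1 probe with a line at their geometric mean. Points for PLAUR and SERPINE2 are single spots with bars of 1 spot SD taken from repeated probes of like signal. Between PLAU and PLAT, which have repeated spots, only for PLAU do the spots of all 3 arrays lie apart.

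Past 2-fold, 0 of the 4 genes were counted in any comparison. Over the array, 3.37% of 16714 genes were past 2-fold higher and 1.57% past 2-fold lower at the low dose. At the high dose the shares were 6.75% and 3.63% of 16977 genes, and for the low over the high dose 3.63% and 3.94% of 16791 genes. Without a threshold, 4 of 4 lay above 0 at the low dose, against 45.5% of the 15177 genes well above background on all arrays, and 3 of 4 at the high dose, against 56.8%, with 2 of 4 there under no, median, quantile or spike-in scaling, where PLAT fell below 0. For the low over the high dose 4 of 4 lay above 0, against 40.6%, although the sign of PLAT, PLAUR and SERPINE2 there turned under normexp. The median log2 difference of the 4 genes was 0.42 with 10 μM and 0.25 with 100 μM, beside -0.03 and 0.08 over all genes.

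In the order of all 15177 genes by their low dose difference, 3.28% of genes lay above SERPINE2, 9.34% above PLAUR, 16.8% above PLAU and 18.2% above PLAT. At the high dose 8.80% lay above SERPINE2, 26.3% above PLAUR, 46.4% above PLAT and 80.5% above PLAU. In the order by the low over the high dose, 878 genes lay above PLAU. PLAU thus stood in the upper part of the order with 10 μM and in the lower part with 100 μM over control. A position above control with 10 μM and below it with 100 μM, as PLAU had, was shared by 10.1% of genes. Both doses above control, as for PLAUR and SERPINE2, was the pattern of 35.4% of genes, and 10.8% had in addition the low dose above the high dose, as PLAT, PLAUR and SERPINE2 had under the reported scaling.

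**Figure D2:**
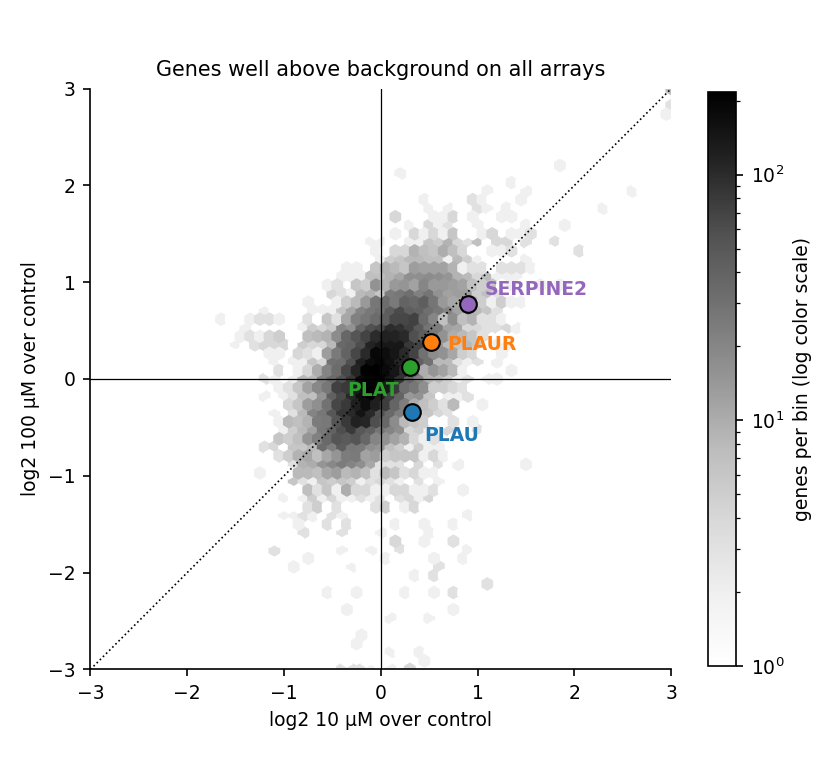
Log2 fold change over control at 10 μM (horizontal) and 100 μM (vertical) for the 15177 genes well above background on all 3 arrays, binned in gray, with the 4 genes in color and values beyond the axes drawn at the edge. PLAU lies right of 0 and below 0 (0.32 and -0.34), while SERPINE2 is the farthest of the 4 toward the upper right (0.90 and 0.78).

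The choice of scaling moved the median of all genes. The median of all genes at the high dose over control was 0.08 as reported, -0.17 with no scaling, -0.21 with median scaling and -0.09 with spike-in scaling. Taken relative to that median, PLAU at the high dose lay at -0.42, with a range of -0.44 to -0.34 over the scalings and background correction. On the same footing PLAUR ran from 0.17 to 0.30, SERPINE2 from 0.43 to 0.70 and PLAT from -0.11 to 0.11, which spans 0. Taking off the median cancels any single offset per array. These relative values could therefore differ from the reported ones only with quantile scaling, normexp or outlier spots kept, and their ranges are no test of the other scalings.

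**Figure D3:**
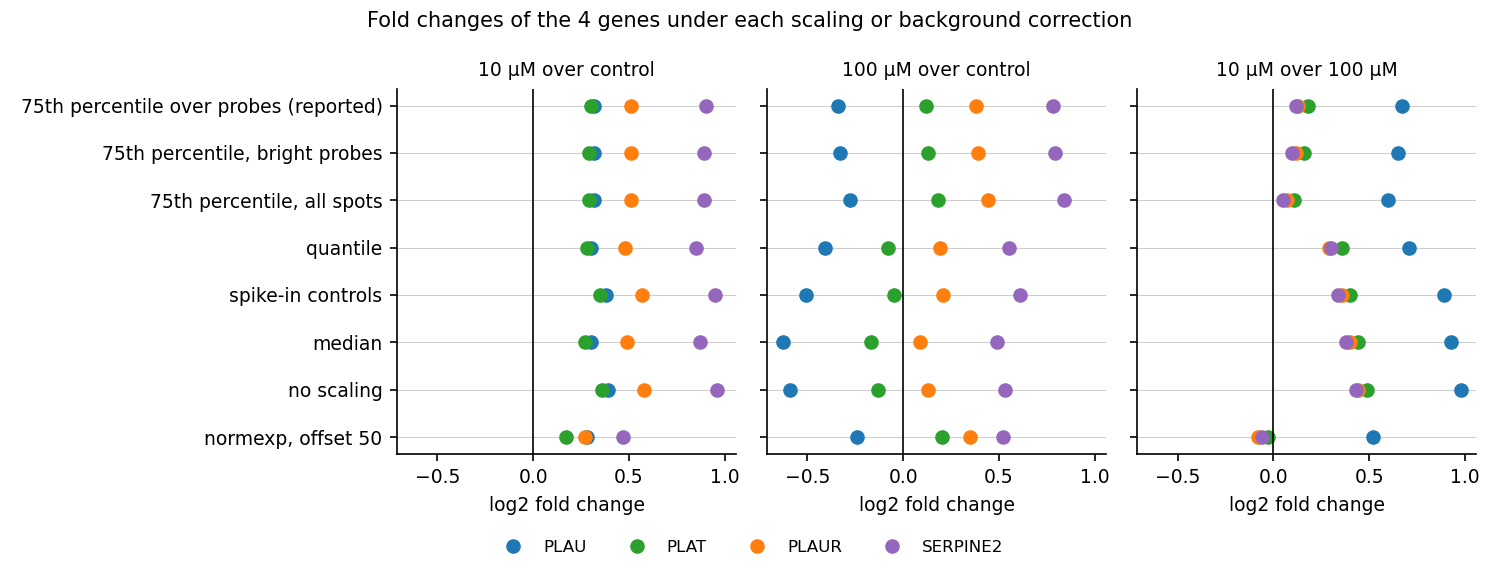
Log2 fold changes of the 4 genes (colors) in each comparison (panels) under the reported scaling and 7 other scalings or background corrections (rows). PLAU keeps its side of 0 in all panels, PLAT crosses 0 for 100 μM over control, and PLAT, PLAUR and SERPINE2 lie below 0 for 10 μM over 100 μM under normexp.

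The other genes that activate plasminogen or hold it in check came from a list of 13, which includes the 4 genes above. Of these 10 were well above background on all arrays, and plasminogen itself (PLG), SERPINB2 and KLKB1 were above it on none. None of the 10 was past 2-fold at the low dose, where 3.37% of all genes were past it higher and 1.57% lower. At the high dose 1 of the 10 was past it, and it was higher, as were 6.75% of all genes. That was SERPINF2, the main plasmin inhibitor of blood, with signals of 379 in control cells, 299 with 10 μM and 652 with 100 μM, or -0.40 and 1.03 on the log2 scale over control, the latter running from 0.75 to 1.09 and so falling short of 2-fold with no scaling, median or spike-in scaling and normexp. SERPINA5, an inhibitor of urokinase and protein C, was at 0.44 and 0.84 and A2M, a broad protease trap, at 0.48 and 0.52. CPB2, a carboxypeptidase that slows fibrin breakdown, was at -0.46 and -0.05. The median of those 10, which include the 4 genes above, was 0.31 with 10 μM and 0.27 with 100 μM, beside -0.03 and 0.08 over all genes. At the low dose its middle values were those of PLAT (0.30) and PLAU (0.32), so it does not describe the other genes alone. The high dose median ran from -0.02 to 0.33 with the setting.

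Receptors and assembly factors numbered 17 on the array, of which 16 were well above background. At the low dose 2 of the 16 were past 2-fold higher and 0 lower, where 3.37% and 1.57% of all genes were, and at the high dose 3 were higher and 1 lower, where 6.75% and 3.63% of all genes were. ITGA3, an integrin that can pair with PLAUR, had signals of 26.4, 66.2 and 60.5 in control, low dose and high dose cells. MRC2, the collagen receptor also known as the urokinase receptor associated protein, had 31.6, 66.4 and 97.8. Both were past 2-fold at each dose under the reported scaling, 1 of them was at the low dose with median or quantile scaling and neither was at any dose with normexp. Their control signals lay near 19.5, the lowest signal well above background on that array. VTN, the matrix ligand of PLAUR, was at 0.31 and 1.13, whereas VLDLR, an uptake receptor for protease and serpin complexes, was at -0.79 and -1.33. The high dose count of 3 receptors past 2-fold higher fell to 2 with no scaling, median or spike-in scaling. With normexp it was 0, and so was the count of those lower. LRP1, which clears urokinase bound to its inhibitors together with PLAUR, was at 0.44 and 0.40 by its brightest probe, and at 0.03 and 0.18 by a second probe well above background on all arrays. The median was 0.15 with 10 μM and 0.22 with 100 μM, and the latter was below 0 with no scaling (-0.03) and with median scaling (-0.07).

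Plasmin substrates and proteases downstream numbered 14, of which 10 were well above background, while HGF, MMP1, MMP2 and MMP3 were above it on no array. HGFAC, which activates hepatocyte growth factor, and MMP14, a membrane collagenase, were past 2-fold higher at the low dose, 2 of 10 against 3.37% of all genes. MMP14 had signals of 411, 978 and 382. For the low over the high dose it was the 1 of 10 substrates past 2-fold higher (1.05), against 3.63% of all genes. That call was lost when the percentile counted every spot and under normexp, and the low dose call of HGFAC (1.02) with median scaling. For the low over the high dose, the fibrinogen gene FGA was the 1 substrate past 2-fold lower (-1.25), against 3.94% of all genes. HGFAC, MST1 and the fibrinogen gene FGA were past 2-fold higher at the high dose, at 1.78, 1.39 and 1.88, which is 3 of 10 against 6.75% of all genes. The list's median was 0.29 with 10 μM and 0.54 with 100 μM.

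**Figure D4:**
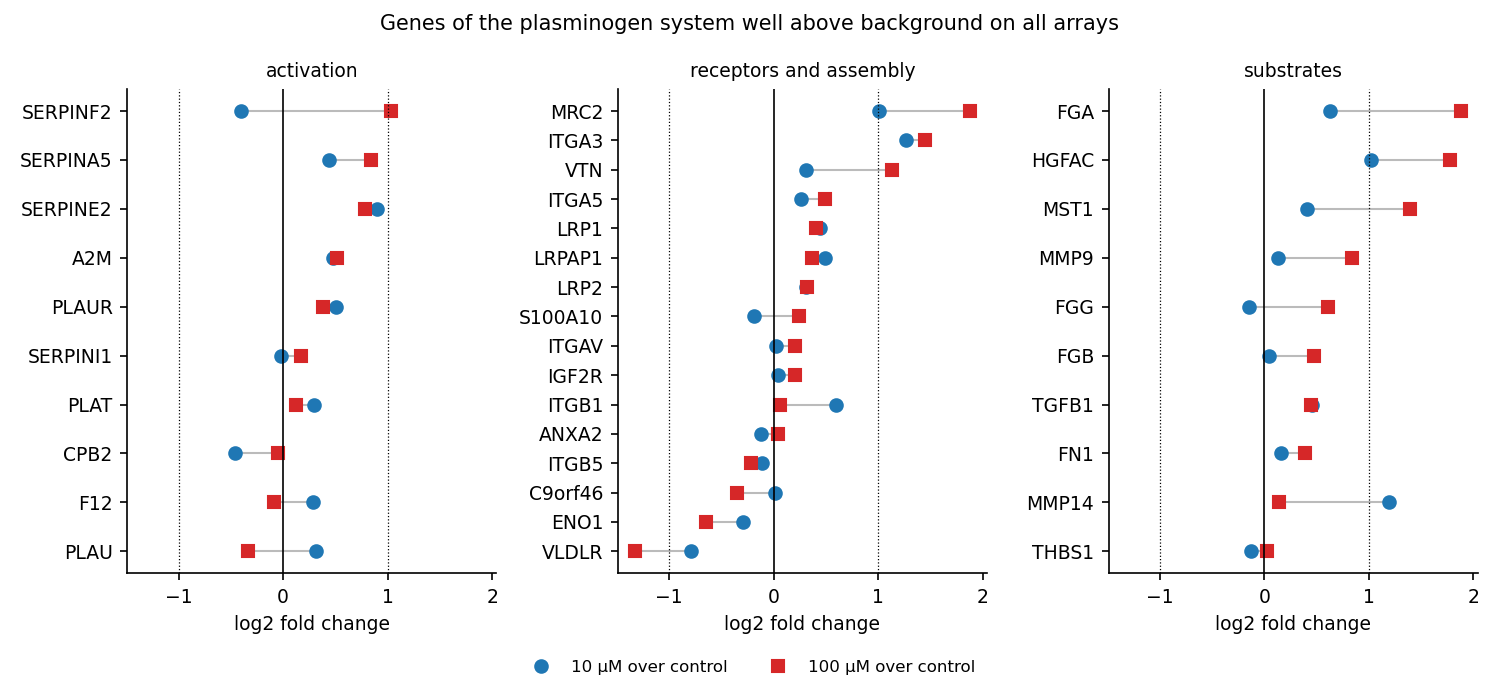
Log2 fold changes over control at 10 μM (circles) and 100 μM (squares) for the genes of the plasminogen system well above background on all 3 arrays, in 3 panels, with dotted lines at 2-fold. In the activation panel SERPINF2 lies below 0 at 10 μM and past 2-fold above it at 100 μM, whereas PLAU lies above 0 at 10 μM and below it at 100 μM. F12 lies on the same sides as PLAU, at 0.29 and -0.09, the latter with a spot SD of 0.07.

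Genes near each of the 4 in both differences from control were sought among 8279 candidates (genes with 1 probe, a RefSeq mRNA accession and a signal well above background on all arrays), by the straight-line distance between the pairs of log2 values. Nearest to PLAU were DCLRE1B at a distance of 0.015, RFC1 at 0.022 and PALB2 at 0.023, and 24 candidates lay within 0.1 of it. Nearest to PLAT were YBX2, ANXA4 and MYO1F, with 151 candidates within 0.1. Nearest to PLAUR were KIAA0247, MAP3K15 and ZNF37A, with 65 within 0.1, and nearest to SERPINE2 were CLDN3, C22orf46 and ELF3, with 18. The distances rest on 3 arrays, and both differences share the control array.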

How the data were processed

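RNA of control, 10 μM and 100 μM etoposide HepG2 cells was measured with 1 array each. The authors deposited the intensity of every spot, background-subtracted and detrended by Agilent Feature Extraction 10.7.3.1 (submitters' processing notes), with calls for signal above background and for outlier spots, and a series table equal to it for all 44495 spots, without scaling from array to array.

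Here, outlier spots were left out, log2 intensity was averaged over the spots of a probe and centered on each array's 75th percentile, counting each probe once, and each gene was read by its brightest probe. A fold change needed at least 1 of the compared arrays well above background in over 0.5 of the probe's spots. A signal not well above background was raised to its array's lowest signal well above background where it lay below that. The spot SD of a single spot came from the 50 repeated probes nearest in signal. No between-condition test is possible. The 3 comparisons share arrays.

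The members and the 5 gene lists were chosen with earlier results of these data known. Named genes are the members, the 3 genes nearest each of them, list genes past 2-fold, and any gene of the activation, receptor and substrate lists above background. Marker genes were named after their values were seen. Some genes of the system are not reported here. Symbols are those of the array design. In a simulation of the low dose over control with 27274 genes, 64 of 67 raised and 47 of 49 lowered genes above background were called, and 1 of 16249 unchanged genes. The raised and lowered genes had median log2 changes of 1.48 and -1.51, larger than those of the members, and the noise was that between spots only. The simulation therefore does not cover changes as small as those of the members or differences between cultures. Alternatives were other scalings, normexp with an offset of 50, outlier spots kept, other filters, thresholds and probe rules, and the series table. Python 3.11.15, pandas 2.3.3, numpy 2.4.6, matplotlib 3.10.9, R 4.3.3 and limma 3.58.1 were used.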

Additional observations from a re-analysis of the deposited data

Results flagged for a closer look

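Of 36 genes of the plasminogen system well above background on all arrays, 4 (11.1%) lay on opposite sides of control at the low and the high dose, each by more than 2 spot SDs, as did 8.03% of all 15177 genes. The difference was not tested, since each dose has 1 array and both share the control array. PLAU was at 0.32 with 10 μM and -0.34 with 100 μM on the log2 scale, and its signs held under the 8 other scalings and corrections of the spots. SERPINF2 was at -0.40 and 1.03, and FGG, a fibrinogen chain, at -0.15 and 0.61, also with signs that held. S100A10, a plasminogen-binding partner of annexin A2, was at -0.19 and 0.24, and the latter ran from -0.05 to 0.30.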

How the results depend on the processing

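Of 120 member values under 10 alternatives, 82 moved by less than the spot SD and 38 moved further, and 0 passed 2-fold. The series table and the setting with no floor on dim signals could not move any of them. The table equals the spot values, and the member probes used were well above background on all arrays. No paired analysis was possible because the conditions hold 1 array apiece. Leaving out a replicate and the slide as a block were not run for the same reason. Dim signals (PLAT, PLAUR and SERPINE2 lie below 111) and the number of arrays limit the precision.

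At the high dose over control, PLAU was -0.59 with no scaling, -0.63 with median, -0.51 with spike-in scaling and -0.24 with normexp. PLAT was -0.13, -0.17, -0.05 with spike-ins and -0.08 with quantile scaling. PLAUR was 0.13, 0.09, 0.21 and 0.19, and SERPINE2 0.53 with no scaling, 0.49 with median, 0.55 with quantile scaling and 0.52 with normexp. For the low over the high dose, with no scaling, median and spike-in scaling, PLAU was 0.98, 0.93 and 0.89, PLAT 0.49, 0.44 and 0.40, PLAUR 0.44, 0.40 and 0.36, and SERPINE2 0.43, 0.38 and 0.34. Quantile scaling gave 0.36 for PLAT, 0.29 for PLAUR and 0.30 for SERPINE2, and normexp 0.52 for PLAU, -0.03 for PLAT, -0.08 for PLAUR and -0.06 for SERPINE2. At the low dose over control, normexp gave 0.17 for PLAT, 0.27 for PLAUR and 0.47 for SERPINE2. The cause was not tested.

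Of 150 list medians, 43 moved by the spot SD or more. At the high dose over control with no scaling, median and spike-in scaling, the activation list was at 0.02, -0.02 and 0.10 (quantile 0.08), receptors at -0.03, -0.07 and 0.05, substrates at 0.29, 0.25 and 0.37, and serpins at 0.49, 0.45 and 0.57. Normexp gave 0.15 for receptors, 0.47 for substrates and 0.63 for serpins there, and 0.06 for receptors at the low dose. The LY6 list was at 0.32 with no scaling, 0.28 with median and 0.34 with quantile scaling. For the low over the high dose with no scaling, median and spike-in scaling, the activation list was at 0.35, 0.31 and 0.27, receptors at 0.23, 0.19 and 0.15, substrates at -0.26, -0.30 and -0.34, serpins at -0.05, -0.10 and -0.14 and the LY6 list at 0.16, 0.12 and 0.08. Quantile scaling gave 0.15 for activation, 0.06 for receptors and -0.47 for substrates. The percentile over all spots gave -0.15 for receptors, -0.63 for substrates and -0.43 for serpins, and normexp -0.07 for activation and -0.43 for substrates.

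Of 300 list counts past 2-fold, 270 stayed within 1.5 times. At the low dose the count of receptors past 2-fold higher was 2, or 1 with median or quantile scaling and 0 with normexp, of substrates 2, or 1 with median scaling, and of LY6 genes 2, or 1 with normexp or with both arrays above background. At the high dose SERPINF2 was the 1 activation gene, and 0 were counted with no scaling, median or spike-in scaling or normexp. Normexp also gave 0 receptors in either direction, 2 serpins and 0 LY6 genes past 2-fold, and 0 LY6 genes were past it when both arrays had to be above background. For the low over the high dose, substrates past 2-fold ran from 0 to 1 higher and 0 to 2 lower, serpins from 1 to 2 lower, and LY6 genes from 1 to 2 higher and 0 to 1 lower.

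Genes past 2-fold over the array went from 564 higher and 263 lower at the low dose to 253 and 81 with normexp, 1248 and 956 with no filter or floor, 215 and 60 past 3-fold and 1509 and 1078 past 1.5-fold. At the high dose, 1146 higher and 617 lower (65.0% higher) became 635 and 1071 with no scaling (37.2%), 587 and 1180 with median (33.2%), 780 and 783 with quantile (49.9%) and 751 and 914 with spike-in scaling (45.1%), 383 and 420 with normexp (47.7%), 761 higher with both arrays above background, 3245 and 1054 with no filter or floor (75.5%), 313 and 278 past 3-fold and 3121 and 1643 past 1.5-fold. For the low over the high dose, 610 higher and 661 lower (48.0% higher) became 1002 and 286 with no scaling (77.8%), 917 and 311 with median (74.7%), 735 and 387 with quantile (65.5%) and 842 and 340 with spike-in scaling (71.2%), 400 and 151 with normexp (72.6%), 413 lower with both arrays above background, 937 and 2558 with no filter or floor (26.8%), 315 and 141 past 3-fold and 1255 and 2398 past 1.5-fold.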

Other observations

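Serpins other than SERPINE2 were taken from a list of 21, of which 17 were well above background on all arrays. Past 2-fold higher were 1 with 10 μM (SERPINA7, the thyroxine carrier of blood) and 4 with 100 μM (SERPINA3, SERPINA4, SERPINA7 and SERPINF2), where 3.37% and 6.75% of all genes were, and 0 were past 2-fold lower. The list's median was 0.35 with 10 μM and 0.74 with 100 μM, and in the low over the high dose 17 of 17 lay below 0, beside 59.4% of all genes, with a median of -0.37. With no, median or spike-in scaling 10 of 17 lay below 0 there, beside 27.9%, 31.9% and 36.0% of all genes. SERPINE2, at 0.12 in that comparison, is not on that list.

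Genes with the LY6 and urokinase receptor domain, the fold that PLAUR carries, numbered 11, and 4 of them were well above background on no array. In each comparison 6 could be measured on at least 1 of its arrays, and these were not the same 6. At the low dose 2 of the 6 were past 2-fold higher, where 3.37% of all genes were. These were LY6D at 2.90 and LYPD1 at a lower bound of 1.18 by 1 of 3 probes, the others of LYPD1 being above background on no array. PSCA was the 1 gene of the 6 past 2-fold higher at the high dose, as a bound by 1 of 2 probes, where 6.75% of all genes were. The medians were 0.11 and 0.57, over sets that differ by LYPD1 and PSCA. They include bounds, since 4 of the 6 genes were measured on both arrays. In the low over the high dose the medians were 0.04 for the activation list, -0.08 for receptors and assembly, -0.57 for substrates and -0.15 for the LY6 list. Past 2-fold lower in that comparison were SERPINF2 (-1.44) of the activation list, SERPINA3 and SERPINF2 of the serpins, FGA (-1.25) of the substrates and PSCA of the LY6 list, as a bound of -1.96. Of the receptors and assembly genes, 0 of 16 were past 2-fold in either direction. Over all genes 3.94% were past 2-fold lower there and 3.63% higher.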
